A study of Mus musculus with 8 samples.

Results

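The circadian clock genes described here were Clock, Npas2, Per1, Per2, Per3, Cry1, Cry2, Nr1d1, Nr1d2 and Dbp. They were chosen by symbol, and all 10 had a row in the deposited count table of 41096 genes and were among the 14875 genes with enough counts to be tested. RNA had been sequenced from the left ventricle of 8 mice, 4 labelled Normal Chow and 4 labelled HFD-LNAME. The latter ate a high-fat diet and received 0.5% L-NAME, which blocks nitric oxide synthesis. The diets were given for 9 weeks from 12 weeks of age. The labels write the strain of all 8 mice as C57BL/5NJ and give each library a mouse number of its own. The design of the series speaks of mice of both sexes with and without the mitochondrial transhydrogenase Nnt, but for these libraries neither the Nnt genotype nor the sex nor the hour of tissue collection is labelled. The levels of the clock genes were therefore read library by library, as a pattern of phase, and then compared between the diets.

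In the mammalian clock, a transcription factor pair that holds CLOCK or its paralogue NPAS2 binds E-box sequences and drives the Per, Cry, Nr1d1, Nr1d2 and Dbp genes. PER and CRY proteins repress that pair, and the nuclear receptors made from Nr1d1 and Nr1d2 (REV-ERB alpha and beta) repress the activator genes, so activators and targets peak at different times of day. The loop runs in heart muscle cells as in most tissues, and the messages of its output genes rise and fall strongly over each day in the mouse heart.

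The depth of the libraries and the tissue they hold touch every result below. Total counts were 41852705 to 52053633 in Normal Chow and 31522074 to 41047658 in HFD-LNAME (n = 4 each, two-sided exact permutation p = 0.0286, the smallest that 70 arrangements allow), and the lowest count of any of the 10 genes in any library was 122. The 8 genes listed as ventricular markers summed to 72356 to 86795 CPM (counts scaled to a common library size with TMM factors) in Normal Chow and 61426 to 80596 CPM in HFD-LNAME. Myh6 (31936 to 44068 CPM) was the largest part of these sums. Of the 8, 1 had a higher estimate in HFD-LNAME, 4 had an unadjusted p under 0.05 in edgeR and none passed the adjusted test. Myl2 stood at 6535 to 7548 CPM in Normal Chow and at 7192, 4890, 4754 and 7553 CPM in HFD-LNAME replicates 1 to 4. Myl7, an atrial myosin light chain, stood at 290.4, 0.714, 283 and 1.02 CPM in Normal Chow replicates 1 to 4 and at 10.2, 686, 293 and 216 CPM in HFD-LNAME replicates 1 to 4, so 5 libraries carried over 200 CPM and 3 did not. The 10 atrial markers summed to 192 to 2281 CPM in Normal Chow and 214 to 4329 CPM in HFD-LNAME; 8 of the 9 tested had a higher estimate in HFD-LNAME, none passed the test, and Dhrs9 was at or near 0 throughout. The 11 adipocyte markers summed to 130 to 161 CPM and 204 to 302 CPM, with 7 of the 9 tested higher in HFD-LNAME, 7 at an unadjusted p under 0.05 and none past the adjusted test. Plin4 (94.4 to 249 CPM) and Cidea (23.8 to 43.8 CPM) made up most of these sums, and Adipoq, a defining adipocyte gene, stood at 0.0423 to 5.42 CPM. HFD-LNAME replicate 1 had the highest sum of its group but, over the mean log2 level of the markers, the lowest score. Ucp1, which defines brown adipocytes, had 11.5 CPM in HFD-LNAME replicate 2 and 5.03 CPM in HFD-LNAME replicate 3, at most 0.335 CPM in the other libraries and no count in 4. In bulk tissue, fewer cells of a type and less RNA per cell cannot be told apart.

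Promoter sequence was read for the clock genes because the E-box and the D-box are among the sites through which this loop is known to act. Of the 10 genes, 9 had RefSeq start sites in the table used (GRCm38.p6), in 12 windows of 250 bases before to 50 after a start. Per2 had none, so its promoter was not read. Sites outside these windows, or spelled otherwise than given next, were not searched for. The E-box (CACGTG, its own reverse complement) and the D-box (TTATGTAA, on either strand) share no overlap, and they occurred in 7.15% and 0.938% of 32851 such windows of the genome. A further motif, the half-site AGGTCA on either strand, occurred in 16.3%. Among the 9 clock genes read, the half-site was found in the windows of 3 genes, Clock, Nr1d2 and Per1, and it is not marked below. The E-box was found in the windows of 2 genes, Per1 and Cry1, and the D-box in that of 1, Per3. Those 3 windows are printed because they hold an E-box or a D-box. That of Ciart, a repressor of the clock's activators whose level is among the results, is printed with them. Each is given as the 250 bases before the start, 5′ to 3′ on the gene's strand, with E-boxes or D-boxes in capitals.
Per1: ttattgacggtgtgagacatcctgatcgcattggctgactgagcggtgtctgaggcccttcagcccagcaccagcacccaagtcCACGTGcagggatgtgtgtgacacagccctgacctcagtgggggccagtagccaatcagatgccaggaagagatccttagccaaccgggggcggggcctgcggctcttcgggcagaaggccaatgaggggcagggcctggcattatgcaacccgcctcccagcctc
Cry1: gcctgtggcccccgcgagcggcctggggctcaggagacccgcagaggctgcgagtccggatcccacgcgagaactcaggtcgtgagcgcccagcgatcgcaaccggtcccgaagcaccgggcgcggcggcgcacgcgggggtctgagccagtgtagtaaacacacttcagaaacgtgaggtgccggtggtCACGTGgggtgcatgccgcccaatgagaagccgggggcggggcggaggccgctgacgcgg
Per3: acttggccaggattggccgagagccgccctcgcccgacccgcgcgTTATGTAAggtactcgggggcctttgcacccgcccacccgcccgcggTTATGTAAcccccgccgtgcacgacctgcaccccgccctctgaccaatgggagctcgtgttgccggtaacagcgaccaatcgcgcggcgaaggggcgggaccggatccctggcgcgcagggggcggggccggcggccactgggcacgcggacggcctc
Ciart: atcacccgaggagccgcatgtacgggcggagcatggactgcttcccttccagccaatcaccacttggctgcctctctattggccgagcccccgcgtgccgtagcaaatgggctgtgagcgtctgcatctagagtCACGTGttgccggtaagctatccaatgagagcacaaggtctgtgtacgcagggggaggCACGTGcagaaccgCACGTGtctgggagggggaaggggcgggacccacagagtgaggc
The Per1 stretch is chr11:69098699-69098948 on the plus strand, with the E-box at position -166 from the start. Cry1 lies at chr10:85185055-85185304 on the minus strand, with the E-box at position -60. The Per3 stretch, chr4:151044666-151044915 on the minus strand, holds D-boxes at positions -205 and -158, and 7 of the 32851 windows (0.0213%) hold 2 or more. That of Ciart, chr3:95882229-95882478 on the minus strand, holds E-boxes at positions -116, -58 and -44, and 29 windows (0.0883%) hold 3 or more. Of the 23 further clock genes, 16 had a window, and 4 held an E-box: Ciart, Tef, Bhlhe41 and Klf15, which also holds 3. These matches are letters in a window and were not tested as binding sites.

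Npas2 and Clock encode the activators. Npas2 stood at 12.8, 2.80, 7.90 and 2.58 CPM in Normal Chow replicates 1 to 4 and at 3.89, 4.40, 7.07 and 5.52 CPM in HFD-LNAME replicates 1 to 4. The highest and the lowest value both belonged to Normal Chow, whose range spanned 4.94-fold against 1.82-fold in HFD-LNAME. The difference between the diets was a log2 fold change of -0.32 ± 0.45 (SE, 95% interval -1.31 to 0.67, edgeR adjusted p = 0.869). Clock was highest in the same library, at 80.1, 42.3, 65.3 and 52.7 CPM in Normal Chow and at 44.8, 57.1, 73.3 and 58.6 CPM in HFD-LNAME. Its groups overlapped, and the log2 fold change was -0.040 ± 0.19 (SE, 95% interval -0.45 to 0.37, edgeR adjusted p = 0.968).

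Dbp, a PAR bZIP transcription factor that binds D-boxes and is a direct output of the loop, varied most widely among the targets together with Per2. It stood at 22.1, 180.3, 49.9 and 148 CPM in Normal Chow replicates 1 to 4, an 8.14-fold range, and at 122, 109, 50.7 and 84.7 CPM in HFD-LNAME replicates 1 to 4, a 2.41-fold range. Normal Chow replicate 1 was the lowest and Normal Chow replicate 2 the highest of all, with HFD-LNAME in between. The means were 100.1 ± 76.0 and 91.7 ± 31.4 CPM (SD, n = 4 each), and the log2 fold change of -0.13 ± 0.51 (SE, 95% interval -1.25 to 1.00, edgeR adjusted p = 0.964) was smaller than its error. In the GENCODE M21 annotation 539 exon bases of Dbp (29.3% of its exon length) overlap Sphk2 on the opposite strand, and whether the counting used strand is not given in the sources used here. Sphk2 stood at 22.0 to 29.7 CPM in all libraries.

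Nr1d1 and Nr1d2, the REV-ERB repressors, moved less than Dbp. Nr1d1 stood at 96.0, 131, 113 and 122 CPM in Normal Chow and at 83.2, 131, 114 and 124 CPM in HFD-LNAME. Its 8 libraries spanned 1.58-fold, and HFD-LNAME replicate 1, which was low in Nr1d1, was the highest in Nr1d2. Nr1d2 stood at 20.7, 39.1, 26.6 and 41.4 CPM in Normal Chow and at 50.7, 37.9, 34.5 and 34.5 CPM in HFD-LNAME. The log2 fold changes were -0.032 ± 0.14 for Nr1d1 (95% interval -0.33 to 0.27, edgeR adjusted p = 0.966) and 0.30 ± 0.21 for Nr1d2 (95% interval -0.15 to 0.76, edgeR adjusted p = 0.688). Nr1d1 shares 263 exon bases (9.67%) with Thra on the opposite strand, at 103 to 131 CPM.

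Per1, Per2 and Per3 encode the PER proteins of the repressor complex. Per2 stood at 4.16, 44.4, 17.9 and 35.0 CPM in Normal Chow replicates 1 to 4 and at 53.8, 28.0, 22.0 and 25.4 CPM in HFD-LNAME replicates 1 to 4. Normal Chow replicate 1 was 12.9-fold below HFD-LNAME replicate 1, the widest gap of any of the 10 genes. Per3 had the same lowest and highest library, with 15.0, 53.1, 25.3 and 41.0 CPM in Normal Chow and 61.0, 38.5, 24.9 and 37.7 CPM in HFD-LNAME. The diets differed by 0.35 ± 0.53 log2 in Per2 (SE, 95% interval -0.81 to 1.51, edgeR adjusted p = 0.881) and by 0.27 ± 0.35 in Per3 (95% interval -0.49 to 1.03, edgeR adjusted p = 0.850).

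Per1, which glucocorticoids are also known to induce, stood at 62.0, 149, 86.1 and 151 CPM in Normal Chow and at 106, 102, 109 and 109 CPM in HFD-LNAME. The 4 HFD-LNAME libraries lay within 1.07-fold of each other, inside the 2.44-fold range of Normal Chow. The means were 112 ± 45.2 and 107 ± 3.17 CPM (SD, n = 4 each; the difference in spread was not tested), with a log2 fold change of -0.075 ± 0.23 (SE, 95% interval -0.58 to 0.43, edgeR adjusted p = 0.952). Fkbp5, a glucocorticoid-induced chaperone, stood beside it at 27.0, 62.5, 40.4 and 53.1 CPM in Normal Chow and at 113, 64.4, 43.6 and 52.5 CPM in HFD-LNAME. Of the 13 glucocorticoid-responsive genes tested, 8 had a higher estimate in HFD-LNAME and none passed the test.

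Cry1 and Cry2 encode the cryptochromes, the other partners of the repressor complex. Cry1 stood at 13.4, 10.6, 9.26 and 7.18 CPM in Normal Chow and at 20.5, 7.72, 9.34 and 10.4 CPM in HFD-LNAME. Cry2 stood at 36.7, 53.0, 36.2 and 45.5 CPM in Normal Chow and at 76.7, 48.7, 38.5 and 51.9 CPM in HFD-LNAME. HFD-LNAME replicate 1 was the highest library in both. The log2 fold changes were 0.24 ± 0.29 for Cry1 (SE, 95% interval -0.39 to 0.87, edgeR adjusted p = 0.836) and 0.33 ± 0.19 for Cry2 (95% interval -0.087 to 0.75, edgeR adjusted p = 0.622), the latter with the lowest unadjusted p of the 10 genes at 0.109.

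**Figure D1:**
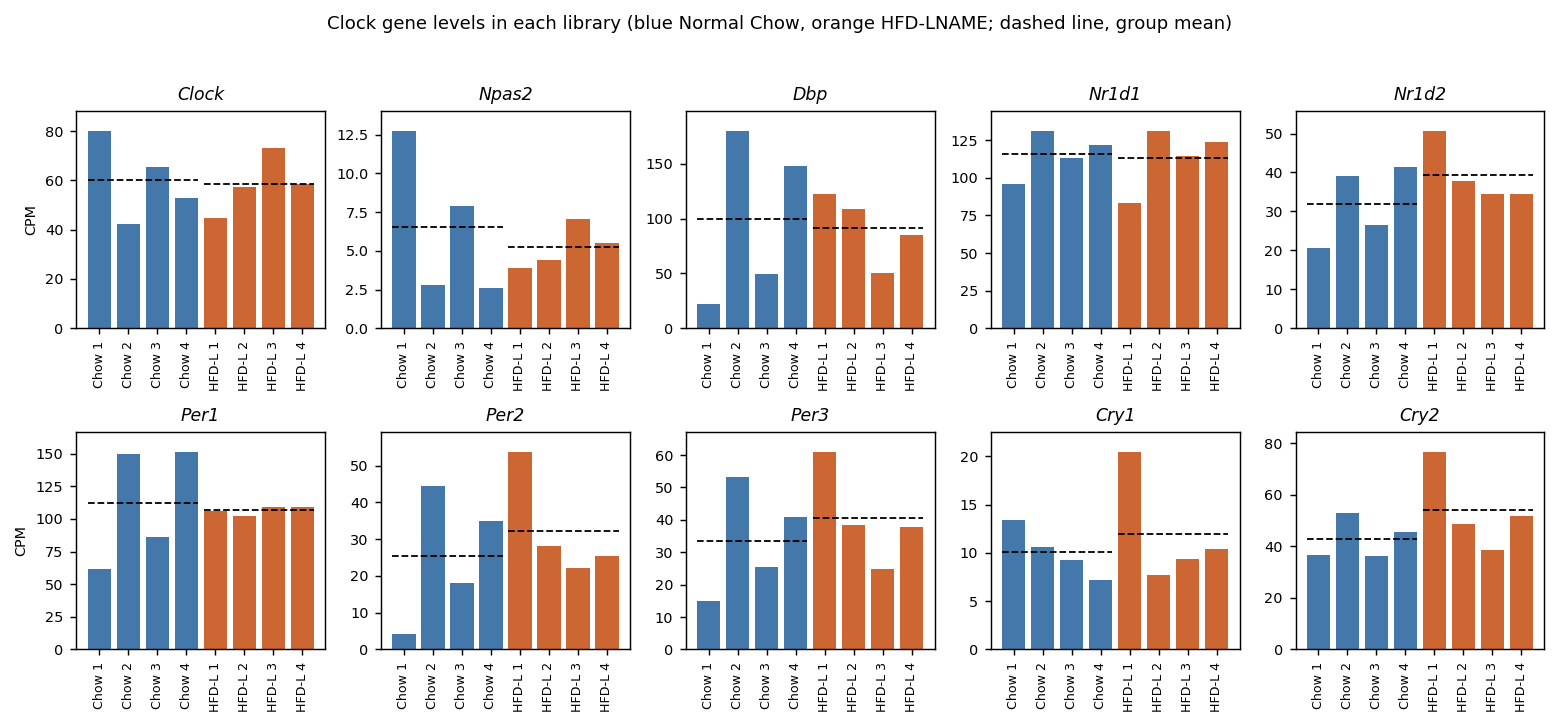
Level of each of the 10 clock genes (CPM, y axis from 0) in each of the 8 libraries (x axis), Normal Chow in blue and HFD-LNAME in orange, with the group mean as a dashed line. Dbp and Per2 are lowest in Normal Chow replicate 1, at 22.1 and 4.16 CPM, where Npas2 is highest at 12.8 CPM.

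Between the diets, then, none of the 10 clock genes passed the test, and none had an unadjusted p under the 0.05 threshold. Over all genes tested 2 passed (0.0134%), 1422 had an unadjusted p under the threshold (9.56%) and 889 had groups that did not overlap (5.98%), whereas all 10 clock genes overlapped between the groups. The estimate was higher in HFD-LNAME for 5 and lower for 5, and their median log2 fold change was 0.11 beside 0.0024 over all genes. In alternative fits some clock genes had an unadjusted p under the threshold, up to 2 in most and 4 or more in 3, though none passed after adjustment. Without the 5 libraries with Myl7 above 200 CPM, which leaves 2 against 1 and assumes that the lone library varies like the others, there were 6 (Per1, Per2, Cry1, Cry2, Nr1d1 and Dbp; 7.8% of all genes). The log2 fold change without those 5 libraries was 0.44 for Per2, 1.20 for Cry1 and 0.64 for Cry2. It was -0.51 for Per1, -0.61 for Nr1d1 and -0.43 for Dbp, which were lower in HFD-LNAME. With the atrial score as a covariate there were 4 clock genes under the threshold (10.4% of all genes) and with the adipocyte score 4 (9.87%). In both fits these were Per2, Per3, Cry2 and Nr1d2, each higher in HFD-LNAME. The log2 fold change of Per2 was then 1.02 and 1.64, and that of Per3 0.69 and 1.11. The fit with 2 clock genes under the threshold had the phase index, defined below, as a covariate. Those were Per2 and Nr1d2, both part of that index. DESeq2 called 161 of 16963 genes (0.949%) and none of the clock genes. In the authors' deposited table the lowest adjusted p of the 10 was 0.544, for Cry2. Libraries of 1 diet differed widely in some of these genes: the percentile of the biological coefficient of variation among all genes tested was 87.4 for Per2, 86.4 for Dbp and 83.4 for Npas2, and 44.2 for Nr1d1.

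**Figure D2:**
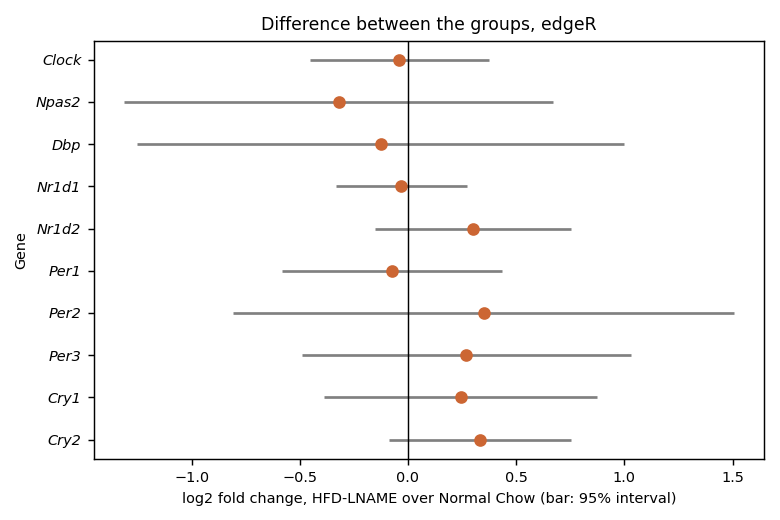
Log2 fold change of HFD-LNAME over Normal Chow (x axis) for each clock gene (y axis), as points with 95% intervals from edgeR, 4 libraries in each group. Every interval crosses 0, and those of Per2 and Dbp reach from -0.81 to 1.51 and from -1.25 to 1.00.

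Of 23 other genes of the clock and its outputs, none passed the test and none had an unadjusted p under the threshold, and none passed with DESeq2 or limma-voom. In HFD-LNAME 13 had a higher and 10 a lower estimate, with a median log2 fold change of 0.067. Among those with the smallest p were Rorb (-0.84 ± 0.43, edgeR adjusted p = 0.568) and Fbxl21 (-1.10 ± 0.70), both lower, and Csnk1e (0.19 ± 0.12), Rora (0.18 ± 0.12) and Timeless (0.25 ± 0.19), all higher in log2 fold change ± SE. Rorb and Fbxl21 were sparse, at 0.49 to 3.01 CPM and at 0.09 to 0.89 CPM, and Fbxl21 had 159 counts over all libraries. Rora and Rorb encode nuclear receptors that bind the same elements as REV-ERB, Csnk1e a kinase of PER proteins, and Fbxl21 a ubiquitin ligase subunit that acts on cryptochromes.

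To place each library in 1 number, the mean log2 level of Dbp, Nr1d1, Nr1d2, Per1, Per2 and Per3 was taken minus that of Npas2 and Clock. A higher value of this phase index means more target message for each activator message, and the scaling of a library cancels in it. The index was -0.44, 2.92, 0.90 and 2.65 in Normal Chow replicates 1 to 4 and 2.50, 1.97, 1.07 and 1.68 in HFD-LNAME replicates 1 to 4. Normal Chow held both ends, with 1 library near the bottom, 1 low and 2 at the top, and the HFD-LNAME libraries lay between. The means were 1.51 ± 1.58 and 1.81 ± 0.60 (SD, n = 4 each), a difference of 0.30 that is smaller than either spread and that turned to -0.35 without Normal Chow replicate 1, while without Normal Chow replicate 2 it was 0.77. As a score over the clock genes it was not tested, and with no collection hour in the labels no library was given a time of day.

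The libraries did not differ along the index alone. The log2 level of Per2 minus that of Nr1d1 was -4.51, -1.56, -2.66 and -1.80 in Normal Chow and -0.63, -2.23, -2.37 and -2.28 in HFD-LNAME. HFD-LNAME replicate 1 stood at the top of this order, being the highest library in Per2, Per3, Cry1, Cry2 and Nr1d2 and the lowest in Nr1d1, although its phase index of 2.50 lay below those of Normal Chow replicates 2 and 4. Normal Chow replicate 1 was the highest in Clock and Npas2 and the lowest in Dbp, Per1, Per2, Per3 and Nr1d2. Without both of these libraries, left out after their values were seen, the log2 fold changes of Per2 and Per3 were -0.37 and -0.24. Removing the lowest Normal Chow and the highest HFD-LNAME value of both genes lowers these estimates by construction.

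**Figure D3:**
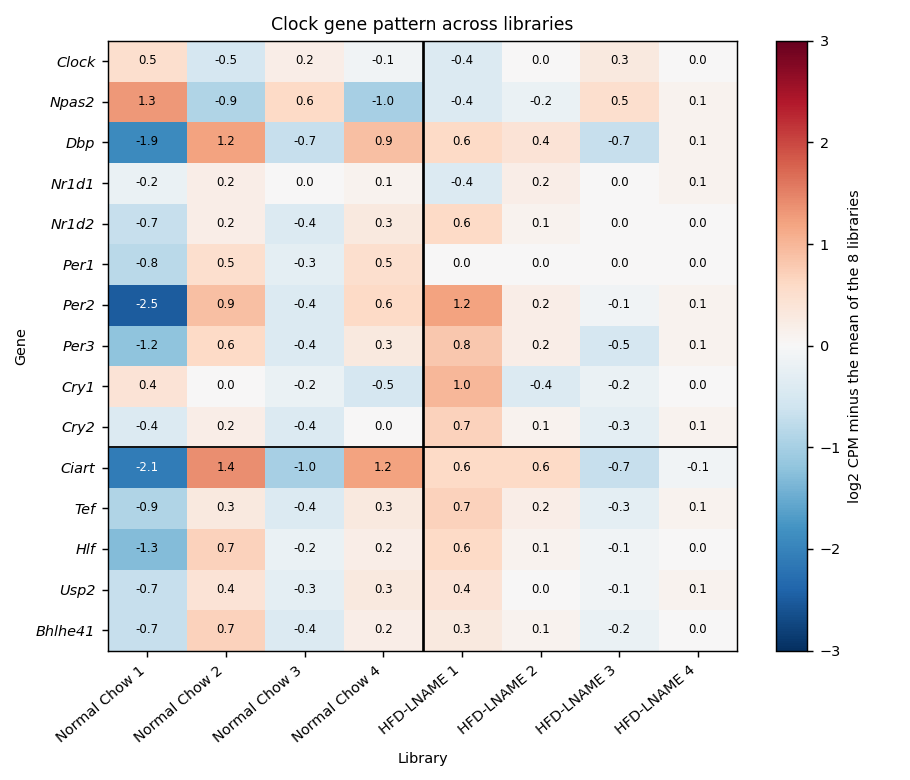
Log2 CPM of each gene (y axis; the 10 clock genes above the line, 5 other clock genes below it) minus its mean over the 8 libraries (colour and printed value), by library (x axis). Normal Chow replicate 1 is low in Dbp and Per2 and high in Npas2, and Normal Chow replicates 2 and 4 show the opposite.

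Libraries low in atrial transcripts were high in the index. The 3 libraries with Myl7 below 200 CPM (Normal Chow replicates 2 and 4 and HFD-LNAME replicate 1) had an index of 2.50 to 2.92, and the 5 above had -0.44 to 1.97. Since the libraries form these separate clusters no correlation is given. Among the 5 with atrial transcripts, HFD-LNAME replicate 2 had the most, with a mean of 5.74 log2 CPM over the atrial markers, and the highest index. The part of atrial tissue in the clock pattern was not tested.

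**Figure D4:**
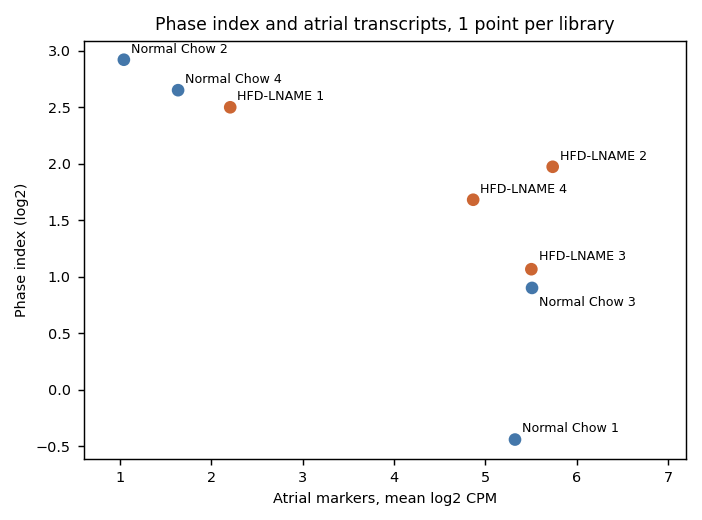
Phase index (y axis, log2) against the mean log2 CPM of the atrial markers (x axis), 1 point for each library, Normal Chow in blue and HFD-LNAME in orange. The 3 libraries at the left have an index of 2.50 to 2.92, and the 5 at the right spread from -0.44 to 1.97.

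Most of the clock genes varied together across the 8 libraries. Dbp was set against each of the other 9 genes on the log2 scale, with exact permutation p-values over 40320 pairings adjusted over the 9 relations. These p-values treat the 8 libraries as exchangeable and take no account of the split by atrial transcripts. The 3 libraries with Myl7 below 200 CPM all lay above the other 5 in Dbp, Per2, Per3 and Nr1d2. In Npas2 and Clock they all lay below the other 5. It ran opposite to Npas2 (Pearson r = -0.98, n = 8, exact permutation p = 9.92e-05, adjusted p = 0.000893; Spearman rho = -0.98) and to Clock (r = -0.92, exact permutation p = 0.000694, adjusted p = 0.00246; rho = -0.95). It ran with Per3 (r = 0.95, exact permutation p = 0.00109, adjusted p = 0.00246; rho = 0.90) and with Per2 (r = 0.92, exact permutation p = 0.000868, adjusted p = 0.00246; rho = 0.93). Per1 (r = 0.90, exact permutation p = 0.00203, adjusted p = 0.00366; rho = 0.79) and Nr1d2 (r = 0.88, exact permutation p = 0.00394, adjusted p = 0.00592; rho = 0.90) also had a positive r over the 8 libraries. Within HFD-LNAME, Per1 did not follow Dbp upwards: it stood at 106 CPM where Dbp was highest (122 CPM) and at 109 CPM where Dbp was lowest (50.7 CPM).

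Without Normal Chow replicates 1 and 3, the 2 libraries farthest from the median of Dbp, r stayed at -0.95 for Npas2, -0.91 for Clock, 0.83 for Per3 and 0.78 for Per2 but fell to 0.66 for Per1 and 0.55 for Nr1d2, so the last 2 rest in part on those libraries. Without Normal Chow replicate 1 alone, Per1 (r = 0.78, adjusted exact permutation p = 0.0836) and Nr1d2 (r = 0.73, adjusted exact permutation p = 0.0866) no longer passed. Over deviations from the group means the r of 0.91 for Per1 had an adjusted exact permutation p of 0.0960. The other 3 relations did not pass by Pearson r over all 8 libraries. Cry2 had r = 0.68 (exact permutation p = 0.0550, adjusted p = 0.0707) and r = 0.47 without the 2 libraries. By Spearman rho Cry2 did pass, narrowly (0.76, exact permutation p = 0.0368, adjusted p = 0.0473). Over deviations from the group means it had r = 0.71 (adjusted exact permutation p = 0.0313). Nr1d1 had r = 0.37 (exact permutation p = 0.362, adjusted p = 0.408; rho = 0.45; 0.089 without the 2 libraries), but r = 0.93 without HFD-LNAME replicate 1. Cry1 had r = -0.14 (exact permutation p = 0.730, adjusted p = 0.730; rho = -0.095; 0.069 without them).

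Genes outside the index were then fitted against it, with diet as a second term, in edgeR over all 14875 genes. This fit was chosen after the pattern had been seen. It called 9 genes (0.0605% of those tested), 4 of which, Dbp, Per2, Per3 and Npas2, follow the index by construction and are given no p. Nr1d1, Nr1d2, Per1 and Clock, though part of the index, were not called, and Nr1d1 had a slope of 0.075 ± 0.067 (SE). The other 5 genes called were all on the list of 23 further clock genes: Ciart, the repressor of the activators shown above, the PAR bZIP factors Hlf and Tef, which bind D-boxes as Dbp does, the ubiquitin protease Usp2, and Bhlhe41, an E-box binding repressor. None of the 14842 genes outside the lists was called, although 1266 of them had an unadjusted p under the threshold; limma-voom and a robust edgeR fit each called 12 genes, 10 of them on the lists. Of the 23, 11 had an unadjusted p under the threshold, 9 with a positive and 2 with a negative slope, beside 8.64% of all genes (4.34% positive, 4.3% negative).

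Ciart had the steepest slope, 1.05 ± 0.077 log2 for each unit of the index (SE, edgeR adjusted p = 0.000320). It stood at 2.45, 26.7, 5.24 and 23.5 CPM in Normal Chow replicates 1 to 4 and at 15.5, 15.7, 6.43 and 9.71 CPM in HFD-LNAME replicates 1 to 4. The same 3 libraries as for Dbp, Normal Chow replicates 1 and 3 and HFD-LNAME replicate 3, were the lowest. Hlf, at 11.6, 45.2, 23.7 and 33.1 CPM and at 41.9, 31.2, 25.4 and 29.1 CPM, had a slope of 0.51 ± 0.055 (edgeR adjusted p = 0.00579). Tef, at 99.7, 232, 137 and 217 CPM and at 296, 210.3, 151 and 189 CPM, had 0.40 ± 0.047 (edgeR adjusted p = 0.00697). Usp2 had 0.32 ± 0.037 (edgeR adjusted p = 0.00697) and ranged from 95.01 to 204 CPM, and Bhlhe41 had 0.36 ± 0.047 (edgeR adjusted p = 0.0179) and ranged from 26.4 to 66.7 CPM. Normal Chow replicate 1 was the lowest library in all 5. Of these 5, Ciart, Tef and Bhlhe41 hold an E-box in their windows, and Hlf and Usp2 hold none. Klf15, whose window holds as many E-boxes as that of Ciart, had a slope of 0.073 ± 0.057 (edgeR adjusted p = 0.756). A relation between E-boxes and slopes was not tested. The cryptochromes, which the index leaves out, did not pass: the slope was 0.21 ± 0.069 for Cry2 (edgeR adjusted p = 0.498) and -0.035 ± 0.14 for Cry1 (edgeR adjusted p = 0.964).

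The number of genes called moved with the libraries. Without Normal Chow replicate 1 there were 3 and without Normal Chow replicate 2 there were 2. With the atrial marker score as a further term only Dbp was called, and with the adipocyte marker score only Dbp and Ciart. The slopes kept their sign: with the atrial score they were 1.17 for Ciart, 0.55 for Hlf, 0.30 for Tef, 0.31 for Bhlhe41 and 0.24 for Usp2, and with the adipocyte score 1.14, 0.51, 0.37, 0.38 and 0.29 in the same order. Ciart was called without each library in turn, with an adjusted p of 0.000243 to 0.0244, but had 0.0785 beside the atrial score, at a slope no smaller. In the Normal Chow libraries alone 26 genes were called, and in the HFD-LNAME libraries alone none was, with 1092 at an unadjusted p under the threshold. Some of the calls in these refits were atrial markers, all with negative slopes. Bmp10 was called without Normal Chow replicate 1 (-5.15) and without Normal Chow replicate 3 (-3.23). Dkk3 was called without HFD-LNAME replicate 2 (-1.57), and Dkk3 (-1.44) and Stard10 (-0.387) in Normal Chow alone.

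**Figure D5:**
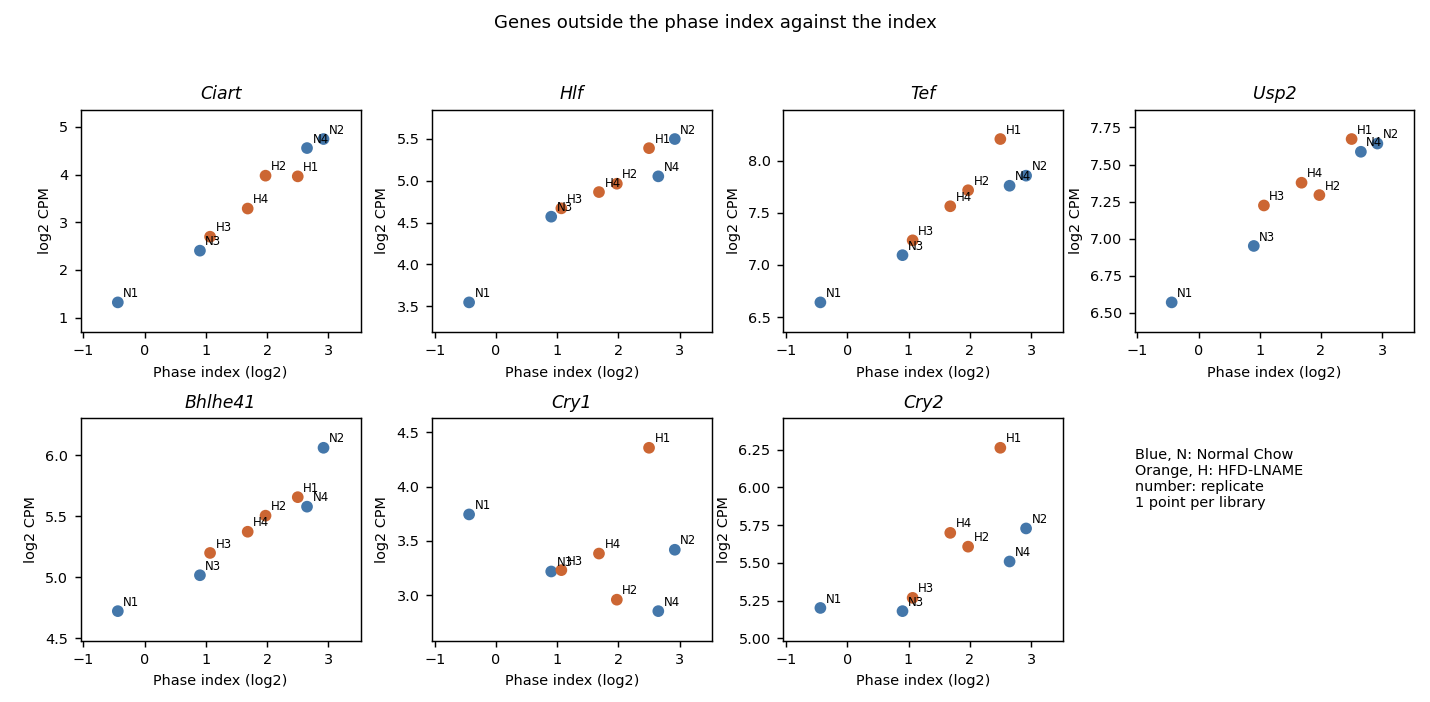
Log2 CPM (y axis) of 7 genes that the phase index does not use against the index (x axis), 1 point for each library, Normal Chow in blue and HFD-LNAME in orange, numbered by replicate. Ciart, Hlf, Tef, Usp2 and Bhlhe41 rise along the index from -0.44 to 2.92, and Cry1 has its highest point at HFD-LNAME replicate 1.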

How the data were processed

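Left ventricular RNA was sequenced in 4 Normal Chow and 4 HFD-LNAME mice, and samples were grouped by the treatment label; replicate numbers follow accession order and pair no mice. The authors deposited raw counts for each gene. The tools named, per the submitters' processing notes, are STAR 2.6, Trim Galore 0.4.0, DESeq2 1.22.1 and bcl2fastq 1.8.4. The build named there is human, while the rows carry IDs of the C57BL/6NJ annotation. Counting step, filters and strand setting: not given in the sources used here. The authors also deposited a table of log2 fold changes with p-values, used here for gene names and for the values credited to it; its 8 per-sample columns were not used.

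The test was the quasi-likelihood F test of edgeR 4.0.16 under R 4.3.3 (TMM scaling, filterByExpr with a minimum count of 10, Benjamini-Hochberg adjustment over all genes tested, threshold 0.05), with limma 3.58.1 and DESeq2 1.42.0 as alternatives, and the edgeR fits were tried on simulated data. Correlations and marker scores used log2 CPM with a prior count of 2. Total counts ranged from 31522074 to 52053633. Libraries of a group differed by more than sampling noise (chi-square per degree of freedom 25.3 to 64.7). Whether the mice shared cages or days is not stated, so p-values measure the spread between these samples.

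The 10 genes and the lists were chosen with earlier results of these data known. Named genes were the 10, the 6 further clock genes with the smallest p (1 of them is not reported here), the genes most like Dbp (at least 5 CPM), and tissue and glucocorticoid checks; the genes named for following the index were chosen after their values were seen. Alternatives were other scalings, filters and tools, covariates and leaving out libraries. Promoters came from RefSeq (GRCm38.p6) and overlaps from GENCODE M21.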

Additional observations from a re-analysis of the deposited data

How the results depend on the processing

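None of the 10 clock genes and none of the 23 further clock genes passed the test of the diets in any of 22 alternatives. At an unadjusted p under 0.05 in edgeR there were 4 of the 10 and 8 of the 23 with the atrial score, beside 10.4% of all genes. With the adipocyte score there were 4 and 6, beside 9.87% of all genes. In these fits and in that without the 5 Myl7 libraries, which leaves 2 against 1, estimates grew by over 1.5 times: Per2 to 1.02 (atrial) and 1.64 (adipocyte), Per3 to 0.69 and 1.11, Nr1d2 to 0.54 and 0.76, Cry2 to 0.76 (adipocyte) and 0.64 (without the 5), and Cry1 to 1.20 (without the 5). The number of genes called in all, 2 in the reported fit, was 161 with DESeq2 (88 higher, 73 lower), 34 with no filter on low counts, 52 without the 5 libraries with Myl7 above 200 CPM, 1 with a robust edgeR fit, and 0 with limma-voom (1456 at an unadjusted p under 0.05), with the atrial or the adipocyte score as a covariate, without HFD-LNAME 2 and 3, and without Normal Chow 1 and HFD-LNAME 1; leaving out each library gave 0 to 3. Negative log2 fold changes of the clock genes also moved further down in some fits. Without the 5 Myl7 libraries these were Per1 (-0.51), Nr1d1 (-0.61) and Dbp (-0.43). With the adipocyte score they were Npas2 (-0.997) and Clock (-0.43), and with the atrial score Npas2 (-0.48) and Clock (-0.21). Several log2 fold changes of the clock genes changed sign, none past the test. With limma-voom these were Per1 (0.023) and Dbp (0.24), with the atrial score Per1 (0.23) and Dbp (0.75), with the adipocyte score Per1 (0.39) and Dbp (0.94), without HFD-LNAME 2 and 3 Dbp (0.051), and without the 5 Myl7 libraries Npas2 (0.53) and Timeless (-0.050). Another 2 fits were chosen after seeing the data. With the phase index as a covariate Clock had 0.061 and Npas2 0.17, but both are part of that index, so these values are no check of the diets. Leaving out Normal Chow 1 and HFD-LNAME 1 gave 0.24 for Clock, 0.36 for Npas2, -0.37 for Per2, -0.24 for Per3, 0.011 for Nr1d1 and -0.0044 for Nr1d2. These libraries held the lowest and the highest values of Per2, Per3 and Nr1d2, so leaving them out lowers those estimates by construction. Leaving out each library, log2 fold changes ran from -0.17 to 0.13 for Clock, -0.58 to 0.24 for Npas2, -0.28 to 0.10 for Per1, -0.0073 to 0.77 for Per2, -0.14 to 0.41 for Cry1, -0.11 to 0.093 for Nr1d1 and -0.46 to 0.33 for Dbp, and the index difference from -0.35 to 0.77. Correlations with Dbp ran from 0.78 to 0.95 for Per1, 0.73 to 0.92 for Nr1d2, 0.63 to 0.83 for Cry2, 0.11 to 0.93 for Nr1d1 and -0.61 to 0.12 for Cry1; without Normal Chow 1 neither Per1 nor Nr1d2 passed, and over deviations from the group means Per1 (0.91) no longer passed and Cry2 (0.71) did. The 9 genes that followed the index became 1 with the atrial score, 2 with the adipocyte score, 26 in Normal Chow alone and 0 in HFD-LNAME alone, and 2 to 13 without each library, while the slopes of the 5 further genes ran from 0.24 to 1.17 with either score. Slopes changed sign for Cry1 in HFD-LNAME alone (0.71) and for Cry2 with the atrial score (-0.029), and ran from -0.15 to 0.24 for Cry1 without each library. The cause of these changes was not tested. No paired analysis was possible because the labels number no replicates and accession order pairs no mice. With 4 libraries a group and a several-fold spread in Dbp and Per2, their intervals hold changes of about 1 log2 unit.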

Other observations

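Outside the lists, the level of a few genes followed that of Dbp across the 8 libraries as closely in Pearson r as the clock genes did, though over narrower ranges than Dbp. Among 9708 named genes with a mean of at least 5 CPM, the 5 with the highest Pearson r over log2 CPM (n = 8, a description) were Pomgnt2 (0.99), a glycosyltransferase that acts on dystroglycan, Dnaaf5 (0.95), Gle1 (0.94), which acts in mRNA export, Zc3h10 (0.92) and Tcap (0.92), the titin cap protein of the Z-disc. The 5 with the lowest were Cap2 (-0.98), Rfx7 (-0.97), Gtf2h3 (-0.95), Nfatc3 (-0.95) and Prkd3 (-0.93). All 10 were picked as the extremes of this ranking, and with 8 libraries such values can arise by selection alone. Pomgnt2 ran from 11.5 to 16.3 CPM and Cap2 from 179 to 212 CPM, while Dbp ran from 22.1 to 180.3 CPM. Tcap had the widest range of the 10, at 870.4, 2126, 990 and 1728 CPM in Normal Chow replicates 1 to 4 and at 1609, 1415, 1119 and 1826 CPM in HFD-LNAME replicates 1 to 4. Its lowest library was Normal Chow replicate 1 and its highest Normal Chow replicate 2, as for Dbp. None of the 10 passed the index term of the edgeR fit over all genes, where Tcap came nearest with a slope of 0.37 ± 0.062 (SE, adjusted p = 0.0952).

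Zbtb16, a zinc finger gene induced by glucocorticoids, stood at 43.5, 29.2, 50.1 and 63.4 CPM in Normal Chow and at 156, 70.6, 65.5 and 49.1 CPM in HFD-LNAME, with the highest value in the same library, HFD-LNAME replicate 1, as Per2, Cry1, Cry2 and Fkbp5. Tsc22d3 stood at 133, 138, 114 and 178 CPM and at 111, 102, 156 and 153 CPM, with no such peak. Plin1, a lipid droplet protein of adipocytes, stood at 2.13, 0.444, 0.742 and 0.466 CPM and at 1.60, 12.0, 8.73 and 2.57 CPM, highest in HFD-LNAME replicates 2 and 3.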
